A study of Mus musculus with 26 samples.

Results

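The comparison described here is the baseline difference between an Mtap knockout line and its wild-type counterpart, both kept in DMSO, across all genes measured. The Mtap KO DMSO group holds 3 libraries and the wild-type DMSO group holds 3 libraries, so 6 of the 26 libraries of the series enter it, each placed by its label. Both lines are MC38/gp100, derived from a colon adenocarcinoma of the mouse and labelled with the melanoma antigen gp100, and both received the DMSO vehicle in a treatment that lasted 5 days for tumour cells. The other MC38 libraries of both lines received the PRMT5 inhibitors GSK3326595 or MRTX1719 at 0.5 µM, and the remaining libraries are T cells, which were not used here. The labels do not say whether the knockout is 1 clone or a pool, which part of the gene was edited, or what the wild-type cells received in place of the edit. Loss of Mtap and any other difference between the lines therefore cannot be told apart.

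MTAP cleaves methylthioadenosine, a by-product of polyamine synthesis, and returns its sulphur and carbon to methionine. Without it methylthioadenosine builds up and partly inhibits PRMT5, the main enzyme that makes symmetric dimethylarginine, because it competes with the methyl donor S-adenosylmethionine. Tumours that lose MTAP depend more on the remaining PRMT5 activity, and MTA-cooperative inhibitors such as MRTX1719 were designed for this state.

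Each library was a poly(A)-selected directional RNA library, and the 6 held between 19302768 and 26160274 counts over genes. Values below are CPM after TMM scaling, a gene's counts as a share of an effective library size; CPM does not correct for gene length, so levels are compared within a gene and not between genes. A gene was called changed at a Benjamini-Hochberg adjusted p under 0.05 in edgeR's quasi-likelihood test, and log2 fold changes are Mtap KO over wild-type. The labels do not say that the libraries came from separate cultures, so p-values measure the spread between libraries, which may be technical. The labelled cell type was checked against its defining epithelial genes. Epcam and Cdx2 had 0 counts in all 6 libraries, Cdh1 (E-cadherin) was at or below 0.538 CPM, and Krt18, Krt19, Krt20, Cldn3, Cldn7, Vil1 and Cdx1 each averaged below 0.3 CPM in both lines. Krt8 averaged 14.4 ± 0.608 CPM in Mtap KO and 23.1 ± 1.34 CPM in wild-type cells (SD, n = 3 each). Vim, the mesenchymal intermediate filament, averaged 4538 ± 78.4 CPM in Mtap KO and 2673 ± 11.8 CPM in wild-type cells. Of 16 epithelial genes listed, all but Krt7, Krt8 and the junction protein Tjp1 were below 1 CPM in both lines. The listed epithelial transcripts were thus mostly absent or near 0, but Krt8, a keratin of the same list, was expressed in both lines.

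Mtap RNA itself was present in both lines. It was 264, 274 and 276 CPM in the Mtap KO libraries, against 388, 393 and 397 CPM in the wild-type libraries. The groups did not overlap, as in 74.4% of all genes tested, and Mtap fell by 0.53 on the log2 scale (SE 0.022, edgeR adjusted p = 1.65e-49). The fall was under 1.5-fold, so Mtap did not pass a test against a 1.5-fold change (edgeR glmTreat, adjusted p = 1). Counts over a whole gene check a knockout label only in part, since an edited gene can still be transcribed. The transcriptomes of the lines differed widely. Of 14835 genes tested among 56562 identifiers, 10854 passed (73.2%), 5367 of them higher in Mtap KO (36.2%) and 5487 lower (37%). With a difference of at least 2-fold added, 2223 genes passed (15%), 1269 higher (8.55%) and 954 lower (6.43%). At least 4-fold differences numbered 288 higher and 308 lower, and at least 16-fold differences numbered 25 higher and 71 lower. The median log2 fold change over all genes tested was 0.01. Libraries of a line were close to each other (common biological coefficient of variation 0.0198), so differences well under 2-fold pass the test, and most passing genes are smaller than 2-fold. Each count for a gene list below is to be read against these shares and this median.

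**Figure D1:**
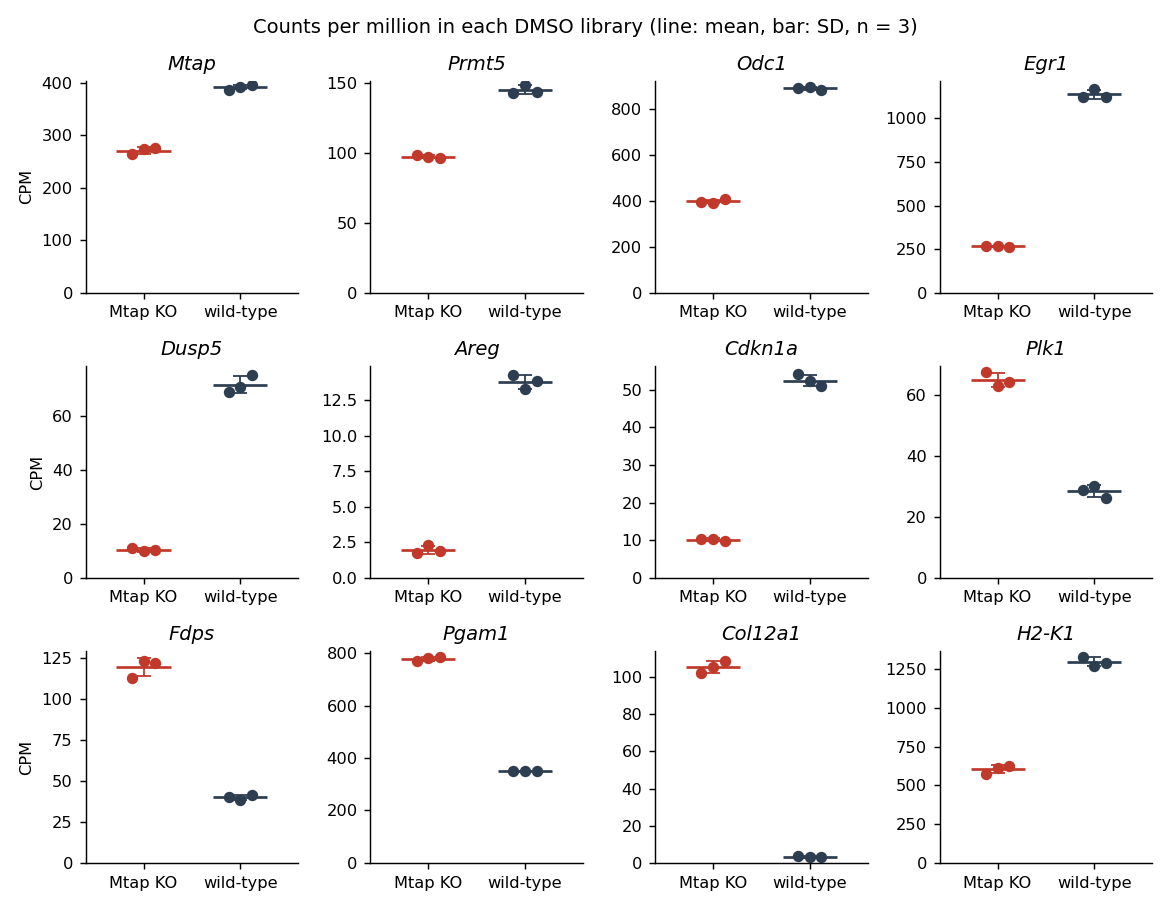
CPM (y axis, linear from 0) of 12 genes in each DMSO library, with Mtap KO libraries on the left and wild-type libraries on the right of each panel. Points are libraries, the horizontal line is the mean and the bar the SD (n = 3); in every panel the groups are separate, as in 74.4% of all genes tested, with Mtap, Prmt5, Odc1, Egr1, Dusp5, Areg, Cdkn1a and H2-K1 lower and Plk1, Fdps, Pgam1 and Col12a1 higher in Mtap KO.

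The pathway of the edited gene moved little at the RNA level beyond a few members. Of 19 methionine cycle and salvage genes tested (of 23 listed), 5 rose and 9 fell, with a median log2 fold change of -0.12. The salvage steps after MTAP fell slightly or did not pass the test. Mri1, the isomerase that acts next, averaged 39.7 ± 0.494 CPM in Mtap KO and 47.1 ± 0.626 CPM in wild-type cells (log2 fold change -0.24), and Enoph1 had a log2 fold change of -0.19. Apip and Adi1, the dehydratase and dioxygenase of the same route, did not pass, at -0.06 and 0.04. Mat2a, which makes S-adenosylmethionine from methionine, was 319.7, 321 and 319.6 CPM in Mtap KO, against 241, 243 and 245 CPM in wild-type libraries. It rose, with a log2 fold change of 0.4 (edgeR adjusted p = 1.21e-35). Cth, the last enzyme of transsulfuration to cysteine, had 32.6, 30.3 and 31 CPM in Mtap KO, against 62.7, 61.1 and 64 CPM in wild-type libraries, a fall of 1.0 on the log2 scale. Ahcyl2, a relative of the S-adenosylhomocysteine hydrolase, fell by 0.85, while the hydrolase Ahcy did not pass (-0.03). The amino acid transporter chains Slc7a5 and Slc3a2, which import methionine among other large neutral amino acids, fell by 0.57 and 0.55.

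Polyamine synthesis, the source of methylthioadenosine, was lower. Odc1, the rate-limiting ornithine decarboxylase, had 394, 393 and 407 CPM in Mtap KO, against 892, 897 and 885 CPM in wild-type libraries. The groups stood apart by more than 2-fold, with a log2 fold change of -1.16 (SE 0.019, edgeR adjusted p = 3.37e-97). Spermidine synthase Srm fell by 0.5, spermine synthase Sms by 0.26 and the S-adenosylmethionine decarboxylase Amd1 by 0.14. Azin1, an inhibitor of the antizyme that destroys ODC1, also fell, by 0.73, and the antizyme Oaz2 rose by 0.34. Among catabolic enzymes, spermine oxidase Smox and the acetyltransferase Sat1 fell by 1.01 and 0.46, and Sat2 and Paox rose by 0.81 and 0.25. The lysosomal polyamine exporter Atp13a2 rose by 0.62 and its relative Atp13a3 fell by 0.48. Eif5a and Eif5a2, which carry the spermidine-derived hypusine, fell by 0.2 and 0.63. Over the 19 polyamine genes listed, all of them tested, 5 rose and 11 fell (median -0.20).

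Prmt5 RNA was 98.6, 97 and 96.7 CPM in Mtap KO, against 143, 149 and 144 CPM in wild-type libraries. It fell by 0.58 on the log2 scale (SE 0.029, edgeR adjusted p = 8.83e-41), and the groups did not overlap, as in 74.4% of all genes tested. Against a 1.5-fold change Prmt5 did not pass (glmTreat adjusted p = 0.897). Its obligate partner Wdr77 did not pass, at 0.11 (adjusted p = 0.0614), although its 3 Mtap KO values lay above its 3 wild-type values. It passed when the 6 DMSO libraries were fitted alone (adjusted p = 0.0330), with median-ratio size factors (adjusted p = 0.0388) and without Mtap KO replicate 1 (adjusted p = 0.0367). The substrate adaptors Clns1a and Coprs both fell by 0.45, and the adaptor Riok1 rose by 0.15. Of the 7 Sm proteins of the spliceosome, which PRMT5 methylates, 2 rose and 3 fell, and the list of 18 methylosome and SMN complex genes tested (of 19) had a median of -0.17. Gemin6 of the SMN complex, which loads Sm proteins onto small nuclear RNAs, fell most, by 0.77. Among the other arginine methyltransferases, 1 of 7 tested rose and 4 fell. Prmt7, which makes monomethylarginine, fell by 0.81, Carm1 by 0.39 and Prmt3 by 0.24, Prmt6 rose by 0.41, and Prmt1, the main asymmetric enzyme, did not pass (0.04), although it did without Mtap KO replicate 1 (adjusted p = 0.0443).

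Immediate early genes were lower in Mtap KO as a whole. These genes are switched on within minutes of growth factor, serum or stress signals, through serum response factor, ternary complex factors and CREB, without new protein synthesis. All 25 listed genes, most of them transcription factors, were tested and all 25 fell, 16 of them at least 2-fold, with a median log2 fold change of -1.36. Egr1 had 269, 268 and 262 CPM in Mtap KO, against 1121, 1169 and 1124 CPM in wild-type libraries. That is a fall of 2.1 on the log2 scale (edgeR adjusted p = 4.34e-126). Egr3 had 1.64, 1.7 and 1.66 CPM in Mtap KO, against 32.8, 31 and 31.4 CPM in wild-type libraries, and Egr2 had 2.36, 1.7 and 1.82 CPM in Mtap KO, against 24.1, 21.7 and 22.6 CPM in wild-type libraries. The orphan nuclear receptor Nr4a3 had 0.924, 0.971 and 0.663 CPM in Mtap KO, against 20.2, 22.1 and 20.6 CPM in wild-type libraries. In Mtap KO Egr3 was 19-fold, Egr2 11.7-fold and Nr4a3 24.6-fold lower. Nr4a1 fell by 2.91, Atf3 by 2.94, Fosb by 2.63 and Fos by 2.37 on the log2 scale. The AP-1 partners Junb and Jun fell by 1.18 and 1.05, Myc by 0.99, and the smallest falls were those of Fosl2 and Srf, both 0.33.

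Promoters of these genes can be read for the element that serum response factor binds, the CArG box, in which CC and GG flank a run of A and T bases. RefSeq promoters on build GRCm38.p6, from 250 bases before to 50 after the start, were found for 19 of the 25 genes. A CArG box on either strand was present in 3 of the 19 (15.8%), against 1.6% of the 10299 tested genes with a promoter in the table and 1.63% of all 32851 promoters there. The stretches that hold them are shown because these genes fell together, and capitals mark the CArG boxes.
Egr2, chr10:67537464-67537533 (plus strand): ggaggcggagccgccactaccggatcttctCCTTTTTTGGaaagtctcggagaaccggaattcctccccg
Zfp36, chr7:28379247-28379316 (minus strand): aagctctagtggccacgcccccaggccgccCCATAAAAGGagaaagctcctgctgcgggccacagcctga
Srf, chr17:46556185-46556274 (minus strand): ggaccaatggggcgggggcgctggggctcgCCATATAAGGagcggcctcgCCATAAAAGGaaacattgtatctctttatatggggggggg
Egr2 has 1 box that begins 72 bases before the start, Zfp36 has 1 at 58 bases and Srf has 2, the first at 82 bases. Zfp36, which encodes an RNA-binding protein that promotes decay of AU-rich messages, had 12.6, 12.7 and 13.4 CPM in Mtap KO, against 54.2, 56.4 and 53 CPM in wild-type libraries. Srf itself had 43.2, 41.9 and 43.3 CPM in Mtap KO, against 50.9, 56.4 and 54.1 CPM in wild-type libraries. The 16 genes without a box in this window also fell, each of them, with a median of -1.26.

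**Figure D2:**
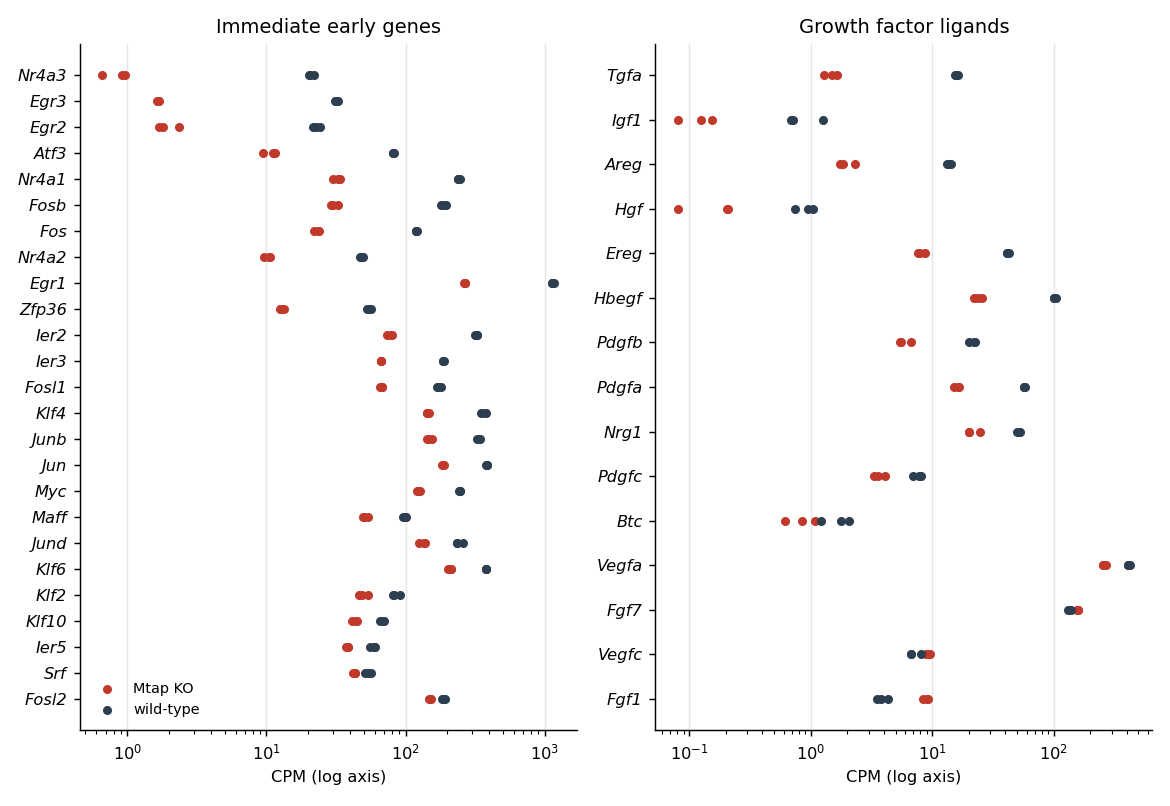
CPM (x axis, logarithmic) of the 25 immediate early genes and the 15 growth factor ligands tested, 1 row per gene, ordered by log2 fold change with the largest fall at the top. Red points are the 3 Mtap KO libraries and dark points the 3 wild-type libraries; the red points lie left of the dark ones for every early gene and for 12 of the 15 ligands.

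Ligands of receptor tyrosine kinases fell with them. Of 15 growth factor ligands tested (of 17 listed), 12 fell, 10 of them at least 2-fold, and 3 rose; the median was -1.84. Of those 10, 4 were ligands of the EGF receptor. Tgfa had 1.28, 1.5 and 1.66 CPM in Mtap KO, against 15.5, 16.4 and 15.6 CPM in wild-type libraries. Areg (amphiregulin) had 1.75, 2.31 and 1.86 CPM in Mtap KO, against 14.2, 13.3 and 13.8 CPM in wild-type libraries. Hbegf had 25.8, 22.2 and 24.1 CPM in Mtap KO, against 105, 99.9 and 101 CPM in wild-type libraries. Their log2 fold changes were -3.4, -2.79 and -2.09, and Ereg (epiregulin) fell by 2.38. Pdgfa and Pdgfb fell by 1.84 and 1.87, Nrg1 by 1.26 and Vegfa by 0.68. Fgf1 was the largest rise, 9.09, 8.37 and 9.28 CPM in Mtap KO against 3.51, 3.83 and 4.3 CPM in wild-type libraries. The receptors were split: 6 of 11 tested (of 15 listed) rose and 5 fell, with a median of 0.08. Egfr had 162, 153 and 161 CPM in Mtap KO, against 78.5, 84.3 and 79.6 CPM in wild-type libraries, a rise of 0.97 on the log2 scale. Pdgfra rose by 0.45 and Met, the receptor of hepatocyte growth factor, fell by 0.79. The RefSeq promoter of Areg (GRCm38.p6) holds the full cyclic AMP response element TGACGTCA, 61 bases before the start, and is shown with that element in capitals.
Areg, chr5:91139508-91139575 (plus strand): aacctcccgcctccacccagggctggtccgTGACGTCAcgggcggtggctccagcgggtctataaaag
That element was found on either strand in 1 of 10 ligand promoters and in 3.52% of the tested genes' promoters.

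Feedback genes of the ERK pathway split by family. All 6 dual-specificity phosphatases listed fell, with a median of -0.81. Dusp5, a nuclear ERK phosphatase, had 11, 9.79 and 10.1 CPM in Mtap KO, against 68.7, 70.8 and 75 CPM in wild-type libraries, a fall of 2.8 on the log2 scale (edgeR adjusted p = 4.88e-63). Dusp1 fell by 1.01, Dusp6 by 0.61 and Dusp4 by 0.47. Among the 6 Sprouty and Spred genes, inhibitors of receptor tyrosine kinase signalling, 4 rose and none fell. Spry1 had 294, 282 and 283 CPM in Mtap KO, against 174, 177 and 172 CPM in wild-type libraries, and Spry2 and Spry4 did not pass. Of 6 further ERK targets 5 fell, among them the receptor kinase Epha2 by 1.73, Phlda1 by 1.7 and the ETS factor Etv4 by 0.94, and Etv1 rose by 0.54.

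p53 targets were mostly lower. Of 29 tested (of 30 listed), 23 fell, 8 of them at least 2-fold, and 5 rose, with a median of -0.42. Cdkn1a, the cyclin-dependent kinase inhibitor p21, had 10.4, 10.3 and 9.77 CPM in Mtap KO, against 54.1, 52.3 and 51 CPM in wild-type libraries. Btg2, an antiproliferative gene that is also induced as an early gene, had 8.32, 7.08 and 7.0 CPM in Mtap KO, against 87.9, 90.8 and 93 CPM in wild-type libraries. They fell by 2.37 and 3.61 on the log2 scale. Plk3 fell by 1.53, Tigar by 1.37 and Sesn2, which is shared with the amino acid stress response, by 1.26. Mdm2, the p53 ubiquitin ligase, fell by 0.41, Bbc3 (PUMA) by 0.62, and Bax rose by 0.19. Trp53 itself had 258, 242 and 236 CPM in Mtap KO, against 169, 169 and 164 CPM in wild-type libraries, a rise of 0.55. The neighbouring tumour suppressors of Mtap, Cdkn2a and Cdkn2b, were not tested: their counts summed over 3 libraries were 2 and 2 in Mtap KO and 5 and 0 in wild-type cells. Rb1 fell by 0.82 and Cdkn1c (p57) rose by 0.82; of 8 cell cycle inhibitor and RB family genes tested (of 10), 3 rose and 4 fell.

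Mitotic and replication genes moved in opposite directions. Of 35 mitosis genes, all tested, 28 rose and 5 fell (median 0.38), and of 44 DNA replication genes, all tested, 8 rose and 31 fell (median -0.28). Plk1, the polo-like kinase of mitotic entry, had 67.4, 62.9 and 64.4 CPM in Mtap KO, against 28.9, 30.2 and 26.2 CPM in wild-type libraries. The kinesin Kif20a and cyclin Ccnb2 rose by 1.09 and 1.01 on the log2 scale, Hmmr and the anaphase activator Cdc20 both by 0.77, and Cdk1 fell by 0.11. Cyclin Ccne2 fell by 1.09, E2f2 by 0.97, the helicase subunit Mcm7 by 0.81 and primase Prim1 by 0.8, while DNA ligase Lig1 rose by 0.81 and the clamp Pcna by 0.1. Cyclin D1 (Ccnd1) had 514, 502 and 511 CPM in Mtap KO, against 812, 811 and 804 CPM in wild-type libraries, a fall of 0.67.

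Genes of growth and amino acid supply were mostly lower. Of 24 ribosome biogenesis genes, all tested, 19 fell and 1 rose (median -0.32). The nucleolar helicase Ddx21 had 169, 164 and 164 CPM in Mtap KO, against 415, 405 and 413 CPM in wild-type libraries, and Rrp9 and Gnl3 fell by 0.99 and 0.82. Npm1, a nucleolar chaperone, was the member that rose, by 0.51. The 83 cytosolic ribosomal protein genes tested (of 89), whose reads can be shared with processed pseudogenes, had no common direction: 40 rose and 30 fell, with a median of 0.06. Of 7 nuclear and imprinted noncoding RNAs tested (of 8), 2 rose and 3 fell (median 0.06). The snoRNA hosts Snhg1, Gas5 and Snhg12 fell by 1.09, 1.05 and 0.92, Neat1 and Kcnq1ot1 both rose by 1.13, and Malat1 did not pass (0.06). Of 14 amino acid and one-carbon targets of the stress factor ATF4, 10 fell and 3 rose (median -0.56). Aldh1l2, a mitochondrial folate dehydrogenase, had 65.2, 62.2 and 64.6 CPM in Mtap KO, against 179.6, 172 and 182 CPM in wild-type libraries. The cationic amino acid transporter Slc7a1 fell by 1.16, Psph, which ends serine synthesis, by 0.95 and the mitochondrial folate enzyme Mthfd2 by 0.93. The other 10 ATF4 targets tested (of 12), stress factors, were split 5 to 5, and Atf5 rose by 0.91. Hspa5 (BiP), the main chaperone of the endoplasmic reticulum, had 2391, 2495 and 2490.3 CPM in Mtap KO, against 4526, 4434 and 4521 CPM in wild-type libraries, and of 12 such chaperone genes 4 rose and 7 fell. Of 15 NRF2 targets 11 fell and 2 rose (median -0.47), with Txnrd1 (thioredoxin reductase) down by 0.84, Gclc (glutathione synthesis) down by 0.73 and Gstm1 up by 1.33. Cytosolic heat shock genes had 1 rise and 4 falls of 9 tested (of 11), with Hsph1 and Dnajb1 both down by 0.68 and Hsp90ab1 up by 0.5.

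**Figure D3:**
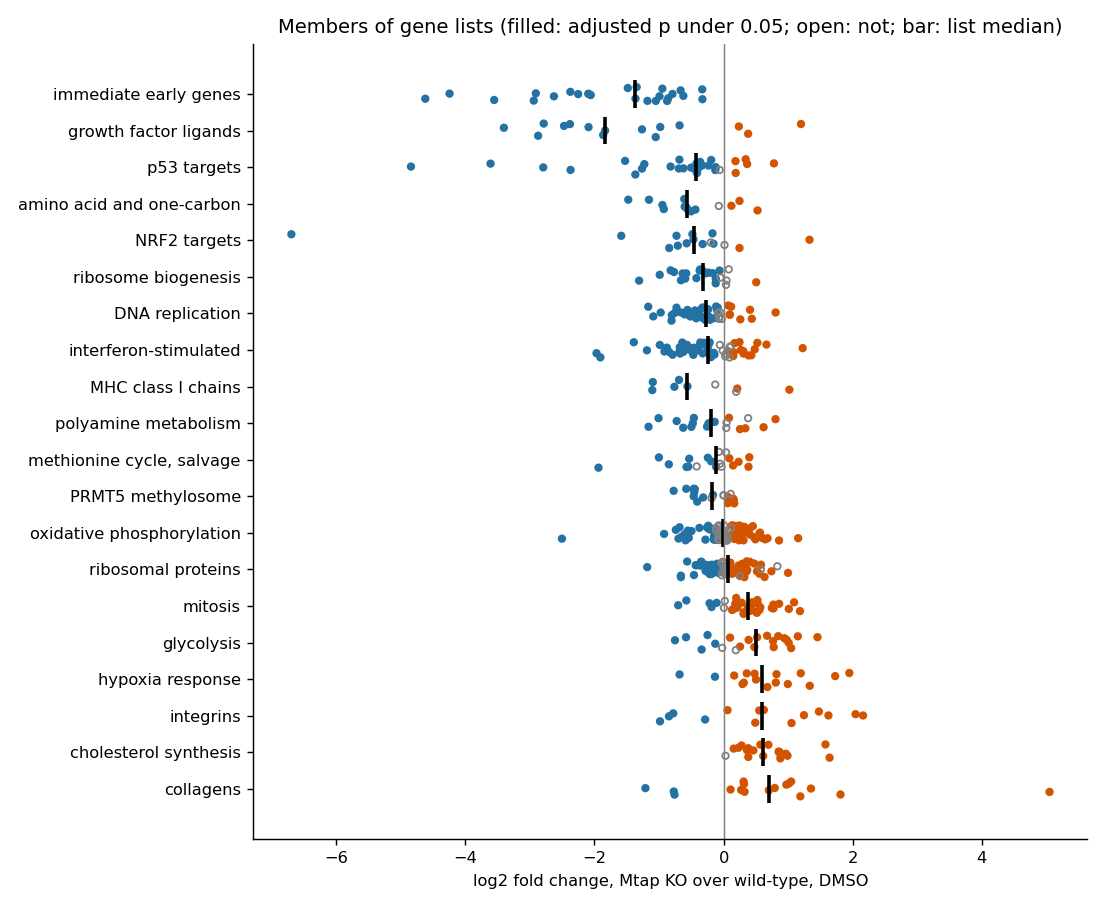
Log2 fold change (x axis, Mtap KO over wild-type, DMSO) of the tested members of 20 gene lists, 1 row per list. Filled points passed an adjusted p of 0.05 (orange higher, blue lower in Mtap KO), open points did not, and black bars are list medians, which run from -1.84 for growth factor ligands to 0.70 for collagens.

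Sterol synthesis was higher. It is run by the membrane-bound factor SREBP2, which is released when sterol is low. Of 19 cholesterol synthesis genes tested (of 20), 18 rose and none fell, with a median of 0.61. Fdps, which makes farnesyl diphosphate, had 113, 123 and 122 CPM in Mtap KO, against 40.2, 38.5 and 41.6 CPM in wild-type libraries. Its groups were far apart, with a log2 fold change of 1.58 (SE 0.040, edgeR adjusted p = 3.19e-44). The sterol reductase Tm7sf2 rose by 1.64, Mvd by 0.99, Hmgcs1 by 0.97 and Hsd17b7 by 0.88. Srebf2, which encodes SREBP2, rose by 0.64, and the LDL receptor by 0.26. Mylip, an LXR-induced ubiquitin ligase that removes the LDL receptor, rose as well, by 1.33. Abca1, the LXR-induced cholesterol exporter, fell by 0.1 (edgeR adjusted p = 0.011), a call lost without Mtap KO replicate 1 (adjusted p = 0.0969). Only 2 of the synthesis genes and Mylip passed 2-fold. The sterol regulatory sequence TCACNCCAC was present in the promoter of 1 of 15 synthesis genes, Hmgcs1, against 1.33% of tested genes. Of 12 fatty acid genes 7 rose and 3 fell. The desaturase Scd2 had 1158, 1141 and 1127 CPM in Mtap KO, against 401, 406 and 409.7 CPM in wild-type libraries, Fads2 and Fads1 rose by 0.95 and 0.63, Scd1 by 0.61 and Fasn by 0.4, and malic enzyme Me1 fell by 0.48.

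Glycolysis and hypoxia-response genes were also mostly higher. Of 22 glycolysis genes, all tested, 15 rose and 5 fell (median 0.50), and of 16 hypoxia-response genes, all tested, 14 rose and 2 fell (median 0.59). Pgam1 (phosphoglycerate mutase) had 771, 781 and 784 CPM in Mtap KO, against 351, 349 and 352 CPM in wild-type libraries. The lactate exporter Slc16a3 had 277, 277 and 278 CPM in Mtap KO, against 103, 101 and 99.6 CPM in wild-type libraries. Gpi1, Pfkl, Tpi1 and Pkm rose by 1.05, 1.01, 0.98 and 0.94, and hexokinase Hk2 fell by 0.25. Processed pseudogenes exist for several glycolysis genes, Gapdh above all, and how their reads were assigned is not given in the sources used here. Among hypoxia targets the oxygen sensor Egln3 had 219, 219.7 and 211 CPM in Mtap KO, against 95.9, 95.4 and 92.3 CPM in wild-type libraries. The mitophagy receptors Bnip3 and Bnip3l rose by 1.0 and 0.82 and Ankrd37 by 1.34. Adm and Car9 rose by 1.95 and 1.73 and were below 1 CPM in wild-type cells. The exceptions were Vegfa, already named, and Ero1a, an oxidase of the endoplasmic reticulum, which fell by 0.13. The 87 nuclear oxidative phosphorylation genes tested (of 98) had a median of -0.0029, with 33 rises and 28 falls.

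Collagens and integrins were mostly higher in Mtap KO. Of 17 collagen genes tested (of 20), 14 rose, 6 of them at least 2-fold, and 3 fell, with a median of 0.70. Col12a1, a collagen that decorates fibrils, had 102, 105 and 108 CPM in Mtap KO, against 3.59, 2.99 and 2.95 CPM in wild-type libraries, the highest log2 fold change among genes at 10 CPM or more in 1 line (5.05). The fibrillar Col3a1 had 4818, 5184 and 5122 CPM in Mtap KO, against 1454, 1413 and 1442 CPM in wild-type libraries. Col1a1, Col1a2, Col5a1 and Col6a1 rose by 1.35, 1.05, 1.01 and 1.19. Col6a3, a partner chain of Col6a1, fell by 1.21. Of 18 matrix glycoproteins and proteoglycans tested (of 20) 10 rose and 6 fell, with the laminin chains Lama5 up by 2.29 and Lama4 down by 2.32. Of 14 proteases and inhibitors tested (of 15) 4 rose and 7 fell. The gelatinase Mmp2 had 0.0513, 0.0809 and 0.0828 CPM in Mtap KO, against 7.73, 7.5 and 7.43 CPM in wild-type libraries, and the inhibitor Timp3 had 0.975, 0.728 and 0.994 CPM in Mtap KO, against 7.98, 8.75 and 6.73 CPM in wild-type libraries. Mmp14, the membrane protease that activates pro-MMP2, rose by 0.85. The peptidase Mme was 2.1, 1.78 and 2.28 CPM in Mtap KO, against 0, 0.0379 and 0.0435 CPM in wild-type libraries. Of 7 crosslinking genes 4 rose and 2 fell.

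Of 14 integrin genes tested (of 17), 10 rose, 6 at least 2-fold, and 4 fell (median 0.59). Itgb3 had 58.5, 63.3 and 61 CPM in Mtap KO, against 13.1, 13.8 and 14 CPM in wild-type libraries, and Itgb5 had 463, 478 and 478 CPM in Mtap KO, against 169, 169.6 and 171 CPM in wild-type libraries. Their shared partner Itgav fell by 0.29, the fibronectin receptor chain Itga5 rose by 0.49, and the common beta chain Itgb1 rose by 0.06. Of 9 immunoglobulin-type and other adhesion genes tested (of 13) none rose and 6 fell. The contactin Cntn3 had 0.257, 0.283 and 0.248 CPM in Mtap KO, against 77.3, 76.6 and 75.7 CPM in wild-type libraries, and L1cam fell by 2.19. Of 5 cadherins tested (of 7), 1 rose, Cdh17 by 1.66, and 2 fell. Among 8 mesenchymal genes and factors tested (of 9), Vim, Fn1 and Zeb1 rose by 0.76, 0.51 and 0.59 and 3 fell, Zeb2 by 0.36; of 7 epithelial genes tested (of 16), 4 fell. Of 7 fibroblast markers 4 rose and 1 fell, with the proteoglycan Dcn at 1179, 1184 and 1196 CPM in Mtap KO, against 467, 473 and 469.9 CPM in wild-type libraries. The 2 leukocyte markers tested (of 9) summed to 1.03 to 1.53 CPM in Mtap KO libraries and 1.77 to 1.82 CPM in wild-type libraries. Of these, Ptprc did not pass and the lysozyme gene Lyz2 fell by 2.02. The other leukocyte markers were left out by the filter on low counts, with Adgre1 at 0 counts in all DMSO libraries. The 2 endothelial markers tested (of 4) summed to 0.58 to 0.924 CPM in Mtap KO libraries and 0.53 to 0.782 CPM in wild-type libraries. Kdr, which was not tested, was at 0. The 2 melanocyte markers tested (of 7) summed to 4.49 to 5.14 CPM in Mtap KO libraries and 7.58 to 8.45 CPM in wild-type libraries. Of these, Mitf, a transcription factor of melanocytes that other cells also use, fell by 1.16. Pmel, the mouse gene of gp100, did not pass (0.29). Tyr, Dct, Tyrp1 and Sox10 were not tested and were at 0 counts.

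Developmental signalling showed large single-gene differences without a common direction over a pathway. In the Notch list 4 of 9 tested genes (of 11) rose and 4 fell. Hes1, a repressor that Notch induces, had 15.8, 14.1 and 15.7 CPM in Mtap KO, against 103, 114 and 105 CPM in wild-type libraries. Notch1 and its ligand Jag1 fell by 1.29 and 0.9, while Notch2, Notch3 and the ligand Dll1 rose by 0.62, 1.72 and 1.4. In the TGF-beta and BMP list 9 of 20 tested genes (of 23) rose and 10 fell. Id3, a BMP target that blocks basic helix-loop-helix factors, had 3.44, 3.76 and 3.52 CPM in Mtap KO, against 32.2, 30.8 and 30.6 CPM in wild-type libraries. Tgfb2 and the inhibitor Smad7 fell by 2.33 and 1.34, and Bmp2, the BMP antagonist Grem1 and the co-receptor Tgfbr3 rose by 1.58, 0.92 and 0.89. In the Wnt list 10 of 21 tested genes (of 29) rose, 5 at least 2-fold, and 10 fell. Dkk3, a Dickkopf family protein, had 174, 179 and 179 CPM in Mtap KO, against 35.7, 35.4 and 34.8 CPM in wild-type libraries. The inhibitors Dkk2, Notum and Rnf43 rose by 1.24, 2.12 and 1.09, the receptor Fzd2 by 1.08, and the factor Tcf7 fell by 0.85. Of 13 YAP and TEAD genes 4 rose and 7 fell, with Tead4 down by 1.62 and the targets Ccn1 and Ankrd1 down by 0.94 and 0.79. Retinoid metabolism was the more uniform list: 7 of 10 tested genes (of 15) rose and 1 fell, with a median of 0.84. Rdh10, which oxidises retinol, had 105, 99.9 and 100.01 CPM in Mtap KO, against 44.6, 45.2 and 45.4 CPM in wild-type libraries, Dhrs3, which reduces retinal, rose by 1.31, the binding protein Crabp2 by 0.74 and Aldh1a1, which makes retinoic acid, by 4.33. Aldh1a1 averaged 5.57 ± 0.99 CPM in Mtap KO and 0.272 ± 0.0268 CPM in wild-type cells.

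Interferon-stimulated genes were lower on balance, with exceptions. Promoters of interferon-stimulated genes often hold an element with repeated GAAA. Of 56 interferon pathway genes tested (of 57), 14 rose and 35 fell, 4 of them at least 2-fold, with a median of -0.25. The chemokine Cxcl10, which attracts T cells, had 101, 96.9 and 98.2 CPM in Mtap KO, against 371, 375 and 364 CPM in wild-type libraries. Herc6, an ISG15 ligase in mouse, had 5.39, 5.5 and 6.71 CPM in Mtap KO, against 23, 22.8 and 23.5 CPM in wild-type libraries. Oasl1 fell by 1.39, Ifi44 by 1.19, Oas3 by 0.99 and Isg15 by 0.79. Others were higher: Ifit1 had 90.8, 94.2 and 88.9 CPM in Mtap KO, against 83.7, 82.5 and 79 CPM in wild-type libraries, and Ifi27l2a rose by 1.23. Irf1, a transcription factor induced by interferon, had 141, 139.6 and 143 CPM in Mtap KO, against 134, 134 and 138 CPM in wild-type libraries. Its log2 fold change of 0.06 passed narrowly (edgeR adjusted p = 0.0464) and lost the call with library totals (adjusted p = 0.0638), with no filter on low counts (0.191), with the replicate block (0.0523), and without Mtap KO replicate 3 (0.112), wild-type replicate 1 (0.127) or wild-type replicate 2 (0.122). In the inhibitor libraries Ifit1 was lower in Mtap KO, with log2 fold changes of -0.16 with GSK3326595 and -0.51 with MRTX1719. The sequence GAAANNGAA on either strand was present in the promoters of 20 of 29 effector, GTPase, sensor and chemokine genes that had one in the RefSeq table (69.0%), against 8.68% of tested genes and 8.56% of all promoters there. Promoters of 3 members (GRCm38.p6) are shown, 2 that fell and 1 that rose, with the matches in capitals; overlapping matches are run together, and in Ifit1 they are on the opposite strand.
Cxcl10, chr5:92349064-92349132 (minus strand): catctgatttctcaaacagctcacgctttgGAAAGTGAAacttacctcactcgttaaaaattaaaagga
Isg15, chr4:156200846-156200926 (minus strand): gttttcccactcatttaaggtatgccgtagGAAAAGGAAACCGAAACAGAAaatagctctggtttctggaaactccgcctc
Ifit1, chr19:34640750-34640843 (plus strand): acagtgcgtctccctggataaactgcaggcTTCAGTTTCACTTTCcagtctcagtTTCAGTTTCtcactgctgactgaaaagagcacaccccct
Of the 20 genes with the sequence 15 fell and 5 rose (median -0.49), and of the 9 without it 6 fell and 2 rose (median -0.46).

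The MHC class I presentation list had no clear direction as a whole: of 23 genes, all tested, 9 rose and 11 fell (median -0.13). Of its 9 chain genes 2 rose and 5 fell (median -0.56), and of its 14 processing genes 7 rose and 6 fell (median -0.0072). H2-K1 had 574, 613 and 622 CPM in Mtap KO, against 1327, 1272 and 1292 CPM in wild-type libraries, and H2-D1 had 772, 792 and 793 CPM in Mtap KO, against 1725, 1658 and 1657 CPM in wild-type libraries. B2m, their common light chain, had 918, 889 and 878 CPM in Mtap KO, against 1451, 1453 and 1427 CPM in wild-type libraries. The transactivator Nlrc5 fell by 1.04, the peptide transporter Tap1 by 0.84, and the immunoproteasome subunits Psmb8 and Psmb9 by 0.81 and 0.83. Among the processing genes that rose, Canx, Psme1 and Psmb10 did so by 0.76, 0.55 and 0.44. Class I heavy chains are near-identical to each other and reads may have been split between them, so single chains are less certain than the group. Of 14 immune ligands tested (of 22) 5 rose and 9 fell: Cd274 (PD-L1) fell by 0.63, Cd276 by 0.74 and Icosl by 0.74, Tnfrsf14 rose by 0.98, and arginase Arg1 had 5.39, 5.46 and 4.47 CPM in Mtap KO, against 0.929, 1.02 and 1.26 CPM in wild-type libraries.

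Chemokines divided. Of 10 tested (of 15), 5 rose, 4 at least 2-fold, and 4 fell, all at least 2-fold. The monocyte attractant Ccl2 had 729, 703 and 708 CPM in Mtap KO, against 309, 309 and 296 CPM in wild-type libraries, and Ccl7 and Ccl9 rose by 1.49 and 3.3. The neutrophil attractant Cxcl1 had 7.29, 8.66 and 8.99 CPM in Mtap KO, against 42.5, 39.6 and 37.8 CPM in wild-type libraries, and Cxcl16 and Cxcl11 fell by 1.31 and 2.22. Of 13 cytokines tested (of 16) 5 rose and 6 fell, with Csf1 and Lif down by 0.54 and 0.76 and Csf2 at 0.212 ± 0.0934 CPM in Mtap KO and 1.28 ± 0.191 CPM in wild-type cells. Of 17 NF-kB regulators and targets tested (of 20) 12 fell and 2 rose (median -0.43). Nfkbia, the inhibitor that NF-kB induces, had 103, 96.6 and 94 CPM in Mtap KO, against 224, 220.4 and 224 CPM in wild-type libraries. Traf1 fell by 1.64, Relb by 0.75 and Rela by 0.59, and Nfkb2 did not pass (0.02). Of 10 complement genes tested (of 12) 4 rose and 5 fell, with the proteases C1s1 and C1ra up by 1.17 and 0.94.

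The largest differences included genes outside these pathways. The 12 highest log2 fold changes among named genes at 10 CPM or more in 1 line ran from 2.74 for Anpep to 5.05 for Col12a1. P2ry14, a receptor for UDP-sugars, had 23.2, 24.5 and 24.2 CPM in Mtap KO, against 0.845, 0.644 and 0.782 CPM in wild-type libraries. Angptl7, a secreted angiopoietin-like protein, had 714, 730.4 and 738 CPM in Mtap KO, against 76.7, 73.6 and 73.6 CPM in wild-type libraries. Olfml2b, a secreted olfactomedin-domain protein, had 802, 827 and 799 CPM in Mtap KO, against 91.6, 90.6 and 89.4 CPM in wild-type libraries. The lipid flippase Atp9a, the transporter Abca9, the myelin protein Pmp22, the histone H2ac24, Medag, the small proteoglycan Aspn and the guidance cue Sema3c complete the 12, with log2 fold changes between 2.79 and 3.74. The 12 lowest ran from -8.19 to -3.74. Pard3b, a polarity protein, had 0, 0.0809 and 0 CPM in Mtap KO, against 10.2, 10.0 and 9.86 CPM in wild-type libraries. Epb41l3, which ties membranes to the cytoskeleton, had 0.667, 0.485 and 0.414 CPM in Mtap KO, against 53.5, 54.1 and 56.1 CPM in wild-type libraries. Adamts9, a secreted protease, had 0.103, 0.0809 and 0.248 CPM in Mtap KO, against 13.6, 12.5 and 12.9 CPM in wild-type libraries. Cntn3, Nr4a3 and Egr3 were given above, and Emb, Nppb (brain natriuretic peptide), Sspn (sarcospan), the phosphatase Inpp4b, Gm27240 and the zinc finger gene Zfp979 fell by between 3.74 and 4.47.

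No gene with at least 1 CPM in Mtap KO had 0 counts in all wild-type libraries, and 5 genes had the reverse pattern. Wdr49 had 0 counts in the Mtap KO libraries, against 5.74, 6.25 and 6.39 CPM in wild-type libraries. Lyplal1 had 0 counts in the Mtap KO libraries, against 2.96, 3.03 and 2.78 CPM in wild-type libraries. Tspan15, Hc (complement C5) and Htr1b, a serotonin receptor, had 0 counts in Mtap KO and means of 1.86, 1.18 and 1.07 CPM in wild-type cells. Against a floor of 3 counts over the Mtap KO group, these are at least 139.6-fold, 66.6-fold, 42.4-fold, 26.8-fold and 24.4-fold lower in Mtap KO, which covers counting error only. The 10 genes with the highest CPM were also read. Eef1a1, Eef2, Gapdh and Npm1 rose by 0.38, 0.5, 0.67 and 0.51, Tpt1 and Rplp0 fell by 0.25 and 0.56, Gm10925 did not pass, and Vim, Hspa5 and Col3a1 were given above.

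Gene position was read from the GENCODE M21 annotation (GRCm38), while the submitters' processing notes name GRCm39, so chromosomes and gene order are given without coordinates. Genes of chromosome 5 were lower as a set: of 949 tested, 571 fell and 151 rose (60.2% and 15.9%), with a median log2 fold change of -0.32. Chromosome 6 had a median of -0.19, chromosome 1 of -0.13 and chromosome 4, which holds Mtap, of -0.12. Among autosomes, chromosomes 19, 13 and 7 had the highest medians, 0.25, 0.23 and 0.22. The same medians were -0.29 and -0.28 for chromosome 5 and 0.25 and 0.28 for chromosome 19 in libraries with GSK3326595 and MRTX1719, which share no sample with the DMSO libraries. Within chromosome 5, the 40 consecutive tested genes from Cenpc1 to Scarb2 had a median of -0.89, with 33 falls and 4 rises. The stretches from Gatad1 to Phtf2 and from Dipk1a to Noc4l had medians of -0.60 and -0.56. Areg, Ereg, Cxcl1 and Cxcl10 are genes of chromosome 5. So are the ligands Btc, Hgf and Pdgfa and the interferon-stimulated Oas1a, Oas3, Oasl1 and Oasl2, which also fell, while Mvk and Insig1 of the same chromosome rose. Oas2, of the same family as these Oas genes, rose by 0.52. Whether the falls of the ligand and interferon lists go beyond the low level of this chromosome, or of its lowest stretches, was not tested. On chromosome 18 the 40 genes from Pcdhb5 to Fgf1 had a median of 0.96, with 33 rises and 3 falls, and on chromosome 13 those from Zfp712 to Tert had a median of 0.67. The histone cluster from H4c11 to H4c1 on chromosome 13 had a median of 0.97, with 20 rises and 6 falls; histone messages mostly lack a poly(A) tail and histone genes are near-identical, so single histone genes are uncertain. Of all 13680 such overlapping stretches, 1.43% had a median over 0.5 and 0.512% under -0.5. The number of copies of these regions in each line was not measured here. Of the 10 tested genes nearest to Mtap, 5 on each side, the noncoding RNA Wincr1 fell by 1.25, Tusc1 rose by 1.28, and Caap1 and Plaa fell by 0.36 and 0.26. The other 6 were predicted genes with Gm symbols, at 10 CPM or less.

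**Figure D4:**
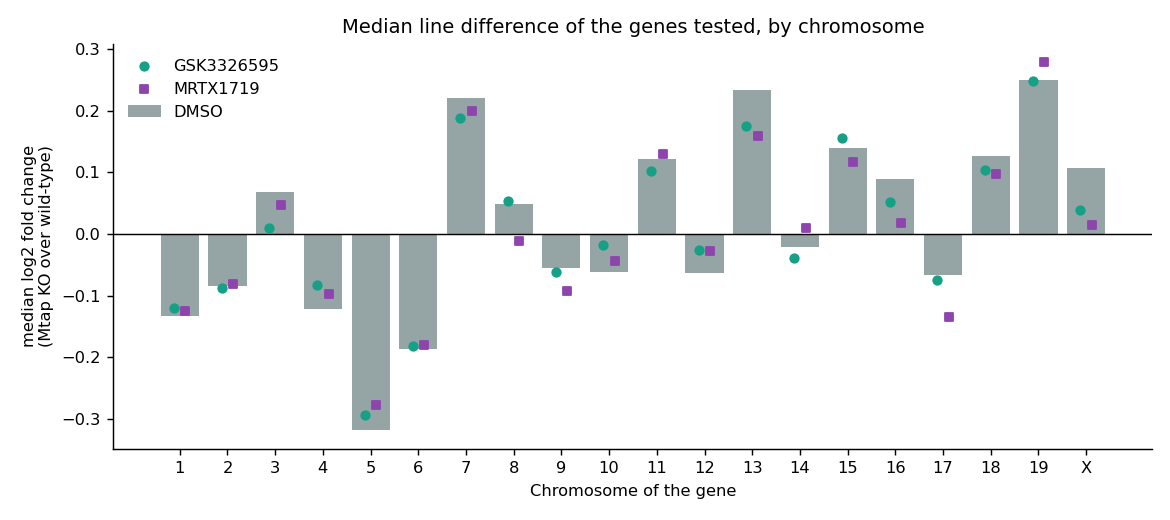
Median log2 fold change (y axis, Mtap KO over wild-type) of the tested genes of each chromosome (x axis). Chromosome Y, with 3 tested genes, is not drawn. Grey bars are DMSO libraries, circles GSK3326595 and squares MRTX1719; chromosome 5 is lowest, at -0.32 with DMSO, -0.29 with GSK3326595 and -0.28 with MRTX1719.

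The baseline difference was then read in the treated libraries of the same lines, which are separate samples. With GSK3326595 (3 libraries of each line), 993 of the 1269 genes at least 2-fold higher under DMSO (78.3%) passed as higher in Mtap KO and 4 passed as lower. Of the 954 genes at least 2-fold lower, 846 (88.7%) passed as lower and 1 as higher. With MRTX1719 (3 Mtap KO and 2 wild-type libraries) the same-direction counts were 879 (69.3%) and 787 (82.5%), and 50 and 24 genes passed the opposite way. Over all genes tested the line difference passed for 72.8% with GSK3326595 (35.7% higher in Mtap KO and 37.1% lower) and for 75.1% with MRTX1719 (36.8% higher and 38.3% lower), so the shares in the same direction stand against those. The median log2 fold change of the genes higher under DMSO was 1.10 with GSK3326595 and 1.11 with MRTX1719, against 1.46 under DMSO, where they were chosen. Among the lists, the medians with GSK3326595 and with MRTX1719 were -1.40 and -1.20 for immediate early genes, -1.44 and -1.43 for growth factor ligands, 0.90 and 1.04 for cholesterol synthesis, and 0.58 and 0.73 for mitosis. For DNA replication they were -0.02 and 0.11, for p53 targets -0.45 and -0.21, and for collagens 0.44 and 0.27; whether these differ from the DMSO medians was not tested. Prmt5 was also lower in Mtap KO with both inhibitors, by 0.51 with GSK3326595 and 0.49 with MRTX1719 on the log2 scale.

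**Figure D5:**
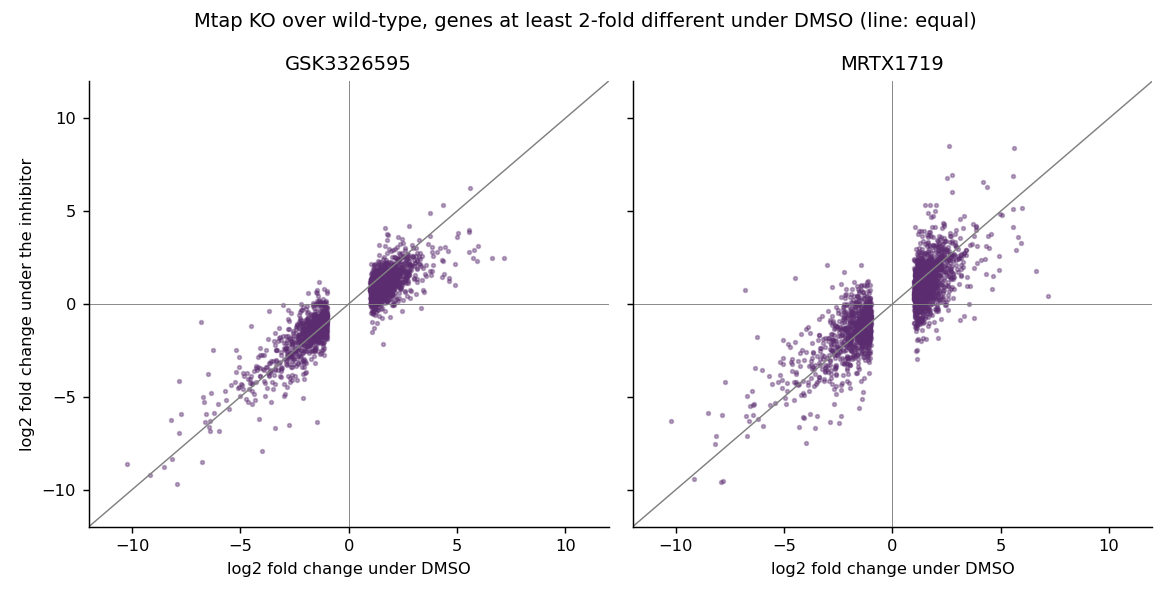
Log2 fold change (Mtap KO over wild-type) of the 2223 genes that passed at least 2-fold under DMSO (x axis) against the same line difference in libraries with GSK3326595 (left panel) and MRTX1719 (right panel, y axis). Each point is a gene and the diagonal marks equal values; 993 and 879 of the 1269 higher genes and 846 and 787 of the 954 lower genes passed in the same direction.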

How the data were processed

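RNA was measured by sequencing of poly(A)-selected directional libraries, per the labels' protocols. The authors deposited whole-number read counts per gene; the submitters' processing notes name TopHat2 2.0.10, Bowtie2 2.1.0, DESeq 1.18.0 and GRCm39 (mm39), and whether counting used strand is not given in the sources used here. Their second table holds a signal, counts divided by 1 size factor per library, as deposited; it was used only to pair gene names with identifiers by value (15629 of 15629 entries matched, tolerance 1e-06). Values here are CPM after TMM scaling. All 17 MC38 libraries were fitted together with edgeR 4.0.16 (R 4.3.3; filterByExpr by group, robust quasi-likelihood, no covariates), and p-values were Benjamini-Hochberg adjusted over 14835 genes at 0.05. On counts simulated for the DMSO comparison the test recovered 56 of 57 seeded changes of 1.5-fold, 72 of 72 of 2-fold and 71 of 71 of 4-fold, and called 6 of 14202 unchanged genes. The simulation gave every gene the same spread, seeded changes only in well-counted genes and left nearly all genes unchanged. It therefore does not cover genes with few counts or a comparison in which most genes differ, as here. Alternatives included DESeq2 1.42.0, other scalings, no filter and leaving out libraries. Gene names otherwise came from the supplied gene name table, and chromosomes and gene order from GENCODE M21; promoters came from RefSeq (GRCm38.p6).

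The members, gene lists and tests were chosen with earlier results of these data known. Named genes were those of the methionine, polyamine and PRMT5 lists, the 12 highest and lowest at 10 CPM or more, genes at 0 counts in 1 line, up to 6 leading members of each list, the 10 most abundant and the neighbours of Mtap. Others, such as Myc, Trp53 and Ccnd1, were chosen after their values were seen. A few members of the lists are counted but not reported singly here.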

Additional observations from a re-analysis of the deposited data

Results flagged for a closer look

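The line difference of Mtap itself changed with treatment. Its log2 fold change, Mtap KO over wild-type, was -0.77 with GSK3326595 and -0.96 with MRTX1719, against -0.53 with DMSO. The difference from DMSO was -0.24 with GSK3326595 (adjusted p = 9.73e-11) and -0.43 with MRTX1719 (adjusted p = 3.96e-24), by the interaction term of edgeR's quasi-likelihood fit. Mtap was lower in Mtap KO in all 3 settings. The share of all genes that passed this interaction term is not given here. Its p-values therefore do not set Mtap, or Ifit1 below, apart from other genes. Of the 10 genes with the highest CPM, all passed it with MRTX1719, such as Rplp0 (adjusted p = 1.17e-46) and Gapdh (7.11e-29). All but Hspa5 (adjusted p = 0.181) passed it with GSK3326595.

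Ifit1, an interferon-induced antiviral gene, was looked at because its line difference also changed with treatment, and was chosen after its values were seen. Its log2 fold change was -0.16 with GSK3326595 and -0.51 with MRTX1719, against 0.16 with DMSO. The difference from DMSO was -0.32 with GSK3326595 (adjusted p = 8.17e-09) and -0.67 with MRTX1719 (adjusted p = 2.82e-25), by the same interaction term. The reason for either difference was not tested.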

How the results depend on the processing

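The count of genes that differed between Mtap KO and wild-type under DMSO was 10854, and lay between 10351 and 10539 when each of the 6 libraries was left out in turn. Testing against a 1.5-fold change (edgeR's glmTreat) left 3034 genes, 2925 with GSK3326595 and 4237 with MRTX1719, because that test asks for a larger difference; Mtap kept its log2 fold change of -0.53 but no longer passed (adjusted p = 1). Mtap was between -0.54 and -0.51 with each library left out. DESeq2 called 10255 genes and called 10243 of the 10854 in the same direction. Higher genes made up 48.3% to 51.5% of calls over all settings, and no scaling moved the median of all genes by over 0.1. Each scaling sets the libraries to a common level, so these values cannot show whether a shift shared by most genes is present. Same-numbered libraries did not deviate together (r = -0.07, -0.10 and 0.01), so the replicate numbers were not taken as pairs; with a replicate block 10830 genes passed. Of 306 named genes besides Mtap, which did not include Oas2, 69 lost their call in the test against 1.5-fold. In the other settings Irf1 lost its call in 6 (adjusted p between 0.0523 and 0.191) and Abca1 in 1, while Wdr77 gained one in 3, Spry2 in 3 (adjusted p between 0.0434 and 0.0499), and Malat1 (0.00914, with the 6 DMSO libraries alone), Prmt1, Ptprc (0.0305, without wild-type replicate 2) and Cdh1 (0.0428, without wild-type replicate 1) in 1 each; none of the 306 changed direction past the threshold. With the 6 DMSO libraries alone 13546 genes were tested in place of 14835, 4 of the 306 had no value, and 1802 genes passed at least 2-fold in place of 2223. There 10 of 64 medians of lists, chromosomes and all genes moved by more than the spread between libraries, and that of the Notch list turned to -0.10 (0.29 in the fit of all 17 libraries). The largest shift of a median was that of the complement list, 0.53 without wild-type replicate 2 against 0.08 with all libraries. Depth limits genes below about 1 CPM, where groups rest on few counts.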

Other observations

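Genes of germline, imprinted and body-plan programs, which the report does not describe, held some of the larger differences. Rhox5, a homeobox gene of the X chromosome that is used in the male germline, had 527, 536 and 527 CPM in Mtap KO, against 194, 189.8 and 188 CPM in wild-type libraries. Taf7l, a germ cell transcription factor subunit, had 0.154, 0.162 and 0.207 CPM in Mtap KO, against 5.24, 4.39 and 4.43 CPM in wild-type libraries. Dazl, an RNA-binding protein of germ cells, rose by 3.41 on the log2 scale but stayed below 1 CPM. Of 16 germline genes listed 4 were tested, 2 of which rose and 2 fell. Of 12 imprinted genes tested (of 32), 7 rose and 3 fell, with Phlda2, a growth-limiting gene of the placenta, at 4.06, 3.92 and 2.73 CPM in Mtap KO, against 13, 11.8 and 11.1 CPM in wild-type libraries, and the noncoding RNAs Kcnq1ot1 and Airn higher by 1.13 and 1.8. Of 23 Hox genes tested (of 39), 10 rose and 5 fell: Hoxa11 and Hoxa13, at the distal end of the A cluster, fell by 1.06 and 1.08, and Hoxc10 and Hoxc13 rose by 0.65 and 0.53. Dnmt1, which maintains DNA methylation, fell by 0.49, and of 13 DNA methylation and Polycomb genes 5 rose and 5 fell.

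Receptors for extracellular nucleotides and their regulators also differed. Besides P2ry14, the adenosine receptor Adora2b had 7.85, 7.44 and 7.25 CPM in Mtap KO, against 2.36, 2.54 and 2.95 CPM in wild-type libraries, and P2ry2, a receptor for ATP and UTP, fell by 1.01. Rgs18, which shortens G protein signals, had 2.21, 1.82 and 1.45 CPM in Mtap KO, against 0, 0 and 0.0869 CPM in wild-type libraries, while Rgs16 fell by 0.73. Among 19 apoptosis regulators tested (of 20), 11 rose and 7 fell: Bmf, a BH3-only protein, had 22.3, 18.7 and 20.2 CPM in Mtap KO, against 4.81, 4.43 and 5.26 CPM in wild-type libraries, and Bid, another, fell by 1.18. Gstp1, a glutathione transferase, varied within both lines, at 216, 102 and 97.4 CPM in Mtap KO and 120.0, 200.1 and 145 CPM in wild-type libraries, and did not pass.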
